A study of Mus musculus with 6 samples.

Results

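Mitochondrial ribosomal protein genes were followed in 4T1, a line of mouse mammary carcinoma cells. They were taken as the protein-coding genes whose GENCODE M21 symbol begins with Mrpl or Mrps and a number, which gave 78 genes of the 56748 in the deposited tables. Of these, 49 carry a large subunit symbol (Mrpl) and 29 a small subunit symbol (Mrps). The 3 treated libraries came from 4T1 cells given 125 µg/mL of Au/MoS2/Bi2S3, a heterojunction of gold, molybdenum disulfide and bismuth sulfide, and exposed the next day to near-infrared light (NIR) for 8 min. The treated cells were harvested after another 24 h. The 3 control libraries came from 4T1 cells of the control group, and the labels give wild-type genotype and 48 h for both groups. The labels describe no particles alone and no light alone, so the particles and the light cannot be told apart here. They state that RNA of 3 individuals was pooled and do not say whether the libraries of a group were separate cultures, so every p-value measures the spread between libraries, which may be technical.

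The mitoribosome makes the few proteins encoded by mitochondrial DNA, all of them membrane subunits of the respiratory chain and ATP synthase. Its rRNAs come from the mitochondrial genome, while all of its proteins are encoded in the nucleus, made in the cytosol and imported. The small subunit binds the mRNA and decodes it, and the large subunit forms peptide bonds and is held at the inner membrane. Some mitoribosomal proteins descend from bacterial ribosomal proteins, and others were added only in mitochondria.

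Values are FPKM as deposited, that is, fragments scaled to gene length and to a size set for each library. How the deposited scale was set between libraries is not given in the sources used here. On it the median log2 fold change, treated over control, was -0.01 over all genes tested. The FPKM of a library summed to between 235757 and 241953 in the treated libraries, against between 450409 and 532583 in the control libraries. Depth worked back from the values was 33.2 to 33.8 M reads (1e6) in the treated libraries and 32.6 to 38.1 M in the control libraries. A recovered read was worth 22.3 to 22.6 (FPKM times exon bases) in treated and 31.5 to 42.7 in control libraries. The deposited values were therefore not scaled by these depths alone. The epithelial keratins Krt8 and Krt18 were at 272 FPKM or more in every library, whereas Krt7 and Cdh1, listed as epithelial markers too, stayed under 0.1 FPKM. Epcam, another epithelial marker, lay between 0.760 and 0.968 FPKM in treated and between 4.43 and 5.74 FPKM in control libraries. The pan-leukocyte marker Ptprc was at or near 0 in all libraries. Col1a1, a collagen gene, carried the summed fibroblast markers, which spanned 30.1 to 32.3 FPKM in the treated libraries and 114 to 755 FPKM in the control libraries. Cd68 alone carried the summed leukocyte markers, at 242 to 260 FPKM in treated and 77.0 to 444 FPKM in control libraries. The part of these differences in the results was not tested, and in bulk RNA fewer cells of a type and less RNA per cell cannot be told apart.

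Mitoribosomal genes moved in both directions, and more of them were lower than higher in treated cells. Of the 77 genes that passed the filter, at least 1 FPKM in 3 or more libraries, 29 fell and 7 rose (limma on log2(FPKM + 1), Benjamini-Hochberg adjusted p under 0.05 over all 11118 genes tested). The other 41 did not pass the threshold. The share of members called, 46.8%, stood beside 56.1% of all genes tested. Lower calls made up 37.7% of the members, against 28.3% of all genes, and higher calls 9.09%, against 27.9% of all genes. Every treated library lay below every control library for 44.2% of the members, where 34.1% of all genes did so. Every treated library lay above for 12.99% of the members, where 33.6% of all genes did so. The median log2 fold change, treated over control, was -0.29 over the members and -0.01 over all genes tested. The signs hold on the deposited scale and flip when each library is brought to the same total, where the median of all genes became 0.81, and 3 members were called lower and 39 higher. In that fit 50.6% of the members were called higher, against 65.6% of all genes, and 3.90% lower, against 6.00%, so higher calls were again fewer among the members. Without treated replicates 1, 2 and 3 in turn, 19, 19 and 18 members were called lower. These were 24.7%, 24.7% and 23.4% of the members, against 19.97%, 20.6% and 19.4% of all genes in the same fits. Without treated replicate 2, 4 members (5.19%) were called higher, against 15.4% of all genes. Without control replicate 2, 13 members (16.9%) were called higher, against 33.03% of all genes.

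**Figure D1:**
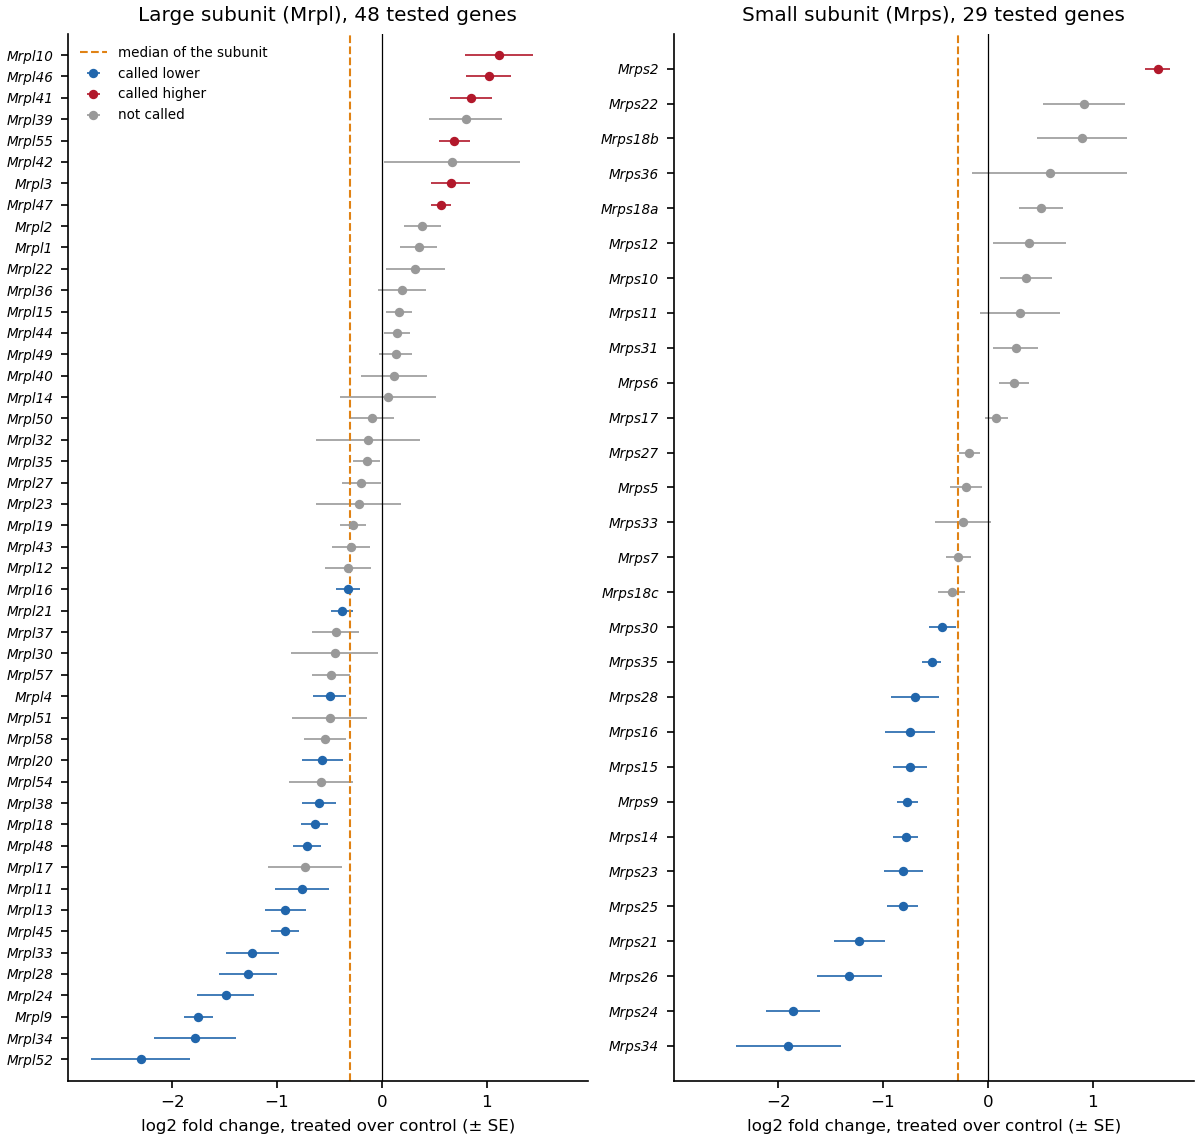
Log2 fold change (treated over control, on log2(FPKM + 1), with its SE) of the 48 large subunit and 29 small subunit genes tested, 3 libraries per group; colours mark the calls and the dashed line the median of each subunit. Both subunits spread from falls near -2 to rises of 1 or more around medians of -0.31 and -0.28, and all values move upward when libraries are given the same total.

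Sorted by symbol, the subunits had medians that differed by less than the spread between replicates. Sorted by place they differed by more than that spread, which was taken from the lists by symbol. Of 48 large subunit genes tested, 16 fell and 6 rose (33.3% and 12.5%), with a median log2 fold change of -0.31. Of 29 small subunit genes, 13 fell and 1 rose (44.8% and 3.45%), with a median of -0.28. Among all genes tested these shares were 28.3% and 27.9%. The large subunit median minus the small subunit median was -0.02, against a replicate SD of that difference of 0.083. With the same total in every library both medians changed sign, to 0.58 and 0.67, and lay below the median of all genes by 0.23 and 0.14. Symbols do not always give a protein's place. Mrps30 and Mrps18a sit in the large subunit, Mrps36 is a subunit of the oxoglutarate dehydrogenase complex, and 5 mitoribosomal proteins have other symbols (Gadd45gip1 in the large subunit and Dap3, Ptcd3, Chchd1 and Aurkaip1 in the small one). Sorted by place, 18 of 51 large subunit genes fell and 6 rose, with a median of -0.33, and 14 of 30 small subunit genes fell and 1 rose, with a median of -0.44. The difference of the medians was then 0.12. The replicate SD comes from the lists by symbol on the deposited scale and leaves out the spread between genes. It therefore does not test this difference. By symbol the difference was -0.09 both with the same total and with GC and length trends removed, slightly above 0.083 in size. No difference between the subunits was tested.

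Some of these genes shared a short run of letters at their starts. RefSeq promoters on GRCm38.p6, spanning 250 bases before and 50 after the start, were found for 69 of the 78 members. The letters AANATGGC, which resemble the site of the factor YY1, were sought on both strands and stood in 30.4% of the member promoters, against 10.9% of 7832 promoters of tested protein-coding genes. On the sense strand after the start they stood in 16 members, or 23.2%, against 4.34% of those promoters, beginning between 7 and 37 bases from the start. The letters hold an ATG. Of these 16 members 5 fell, 1 rose and 10 were not called, with log2 fold changes of -1.86 to 0.67. Over all genes tested, 28.3% fell and 27.9% rose. The windows below, of 30 bases each on the transcribed strand, show the match in capitals in 4 genes that fell, 1 that rose and 3 that were not called. They were chosen after the matches were seen. Their positions are, in the same order, chr11:5707652-5707681 (minus strand), chr19:4962315-4962344 (plus), chr17:12916067-12916096 (minus), chr13:118387219-118387248 (minus), chr3:32736724-32736753 (minus), chr17:46111004-46111033 (plus), chr10:95501904-95501933 (minus) and chr11:115403761-115403790 (plus).
Mrps24, lower: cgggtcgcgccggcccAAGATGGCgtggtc
Mrpl11, lower: acctctgacccAAAATGGCcgcgcccagag
Mrpl18, lower: tacccacagttAACATGGCtgcgactagtt
Mrps30, lower: cgcggcgggcgAAAATGGCggcggccaggt
Mrpl47, higher: tctccattagaAACATGGCtgcgaccagtc
Mrps18a, not called: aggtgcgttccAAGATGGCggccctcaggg
Mrpl42, not called: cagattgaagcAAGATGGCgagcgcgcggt
Mrpl58, not called: cctgggaggtgAACATGGCgaccgcctggg

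Other motifs were searched in the same promoters on both strands. The letters GCGCANGCG, of the kind bound by NRF1, a regulator of nuclear genes for mitochondrial proteins, stood in 23.2% of member promoters and in 16.8% of those of tested genes. They stood in 5 of 23 promoters of members that fell, in 1 of 7 of members that rose and in 10 of 38 of members not called. CCGGAAGT, an ETS site of the kind bound by GABP, stood in 17.4% of member promoters, against 10.3% of those of tested genes. GGGCGG, a GC box, stood in 49.3%, against 73.3%. CCAAT stood in 39.1%, against 43.4%, and TATAAA in 7.25%, against 8.15%. A match describes letters and not binding. The 150 bases before the start are printed for 4 genes, 2 that fell and 2 that rose, with matches to GCGCANGCG in capitals, as examples with and without the letters. Mrpl9 (chr3:94443186-94443335, plus strand) holds overlapping matches on both strands from -28 and -27, Mrpl45 (chr11:97315566-97315715, plus) holds matches from -120 and -38, Mrpl10 (chr11:97041432-97041581, plus) holds 1 from -135 on the opposite strand, and Mrps2 (chr2:28467916-28468065, plus) holds none.
Mrpl9, lower: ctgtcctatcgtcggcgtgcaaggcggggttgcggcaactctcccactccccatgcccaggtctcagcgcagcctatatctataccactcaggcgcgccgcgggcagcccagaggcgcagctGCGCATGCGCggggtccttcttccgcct
Mrpl45, lower: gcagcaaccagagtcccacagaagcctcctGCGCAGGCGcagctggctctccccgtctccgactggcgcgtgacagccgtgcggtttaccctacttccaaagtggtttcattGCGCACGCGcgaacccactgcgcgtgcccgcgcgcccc
Mrpl10, higher: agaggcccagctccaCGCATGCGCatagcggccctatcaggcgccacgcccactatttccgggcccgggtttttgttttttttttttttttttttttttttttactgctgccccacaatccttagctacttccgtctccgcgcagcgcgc
Mrps2, higher: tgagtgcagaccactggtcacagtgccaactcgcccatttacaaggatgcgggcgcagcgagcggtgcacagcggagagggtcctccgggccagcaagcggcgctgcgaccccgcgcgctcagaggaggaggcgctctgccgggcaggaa

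Among large subunit genes the falls were led by Mrpl52, a protein found only in mitochondrial ribosomes. Mrpl52 (chr14:54426909-54429756) had 24.9, 29.6 and 23.2 FPKM in the treated libraries, against 134, 65.3 and 256 FPKM in the control libraries. The groups did not overlap, and the control libraries spread far more than the treated ones. Its log2 fold change was -2.30 ± 0.47 (SE, n = 3 each; limma adjusted p = 0.00737), and its call was lost with level trends removed, where its limma adjusted p was 0.0706 in a range of 0.00101 to 0.0706 over its alternatives. Mrpl34, the homologue of bacterial L34, had 40.6, 40.9 and 38.2 FPKM in treated cells, against 141, 78.0 and 247 FPKM in control cells (log2 fold change -1.78 ± 0.40, limma adjusted p = 0.0101). Again every treated library was below every control library, and control 3 was the highest. Its call was lost under cyclic loess, under both trend corrections and with the same total, where its adjusted p ranged up to 0.431, against a lowest adjusted p of 0.00120 over its alternatives. Mrpl9, the homologue of bacterial L9 whose promoter is shown above, had 23.6, 25.5 and 24.98 FPKM in treated cells, against 92.3, 72.6 and 93.0 FPKM in control cells. Both groups were tight for this gene, and its fall of -1.75 ± 0.14 (limma adjusted p = 0.000344) had the smallest SE among the 5 largest large subunit falls. Its fold change stayed between -1.87 and -0.77 and was called in all 17 alternatives.

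Mrpl24 and Mrpl28 followed. Mrpl24, whose bacterial homologue lies by the exit of the peptide tunnel and starts subunit assembly, had 31.1, 34.9 and 34.5 FPKM in treated cells, against 102, 63.4 and 135 FPKM in control cells. The groups stood apart, and control 2 was the nearest to the treated libraries. The log2 fold change was -1.49 ± 0.27 (limma adjusted p = 0.00498), and with the same total in every library its limma adjusted p was 0.0864, in a range of 0.000634 to 0.0864. Exons of Rrnad1 on the other strand cover 26.3% of those of Mrpl24, and Rrnad1 itself averaged 2.20 FPKM in treated and 3.31 FPKM in control libraries. Mrpl28, the homologue of bacterial L28, had 36.1, 38.8 and 33.97 FPKM in treated cells, against 87.6, 60.8 and 133 FPKM in control cells (log2 fold change -1.28 ± 0.28, limma adjusted p = 0.00970). The treated libraries were again all below. The call of Mrpl28 was lost under 5 of 17 alternatives, all of them other scalings or trend corrections, with adjusted p between 0.00172 and 0.461 over all alternatives. The 11 other large subunit genes that fell had log2 fold changes between -1.23 for Mrpl33 and -0.33 for Mrpl16.

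Small subunit falls were led by Mrps34 and Mrps24. Mrps34, a protein specific to mitochondrial ribosomes, had 12.5, 13.7 and 11.1 FPKM in treated cells, against 46.6, 23.6 and 107 FPKM in control cells (log2 fold change -1.90 ± 0.51, limma adjusted p = 0.0195). The groups did not overlap, but control 3 was more than 4 times control 2. This value is uncertain. Exons of Mapk8ip3 on the other strand cover 63.4% of the Mrps34 exons and those of Nme3 on the same strand 37.0%, and the strand setting of the counting is not given in the sources used here. Mapk8ip3 averaged 13.4 FPKM in treated and 41.8 FPKM in control libraries, close to the levels of Mrps34. The call of Mrps34 was lost in 7 of 17 alternatives. It was lost without any 1 of the treated libraries or control 1, at limma adjusted p between 0.0553 and 0.0693. It was also lost without the filter on low values, with the same total, and with GC, length and level trends removed. The adjusted p ranged from 0.00247 to 0.0958 over all its alternatives. Mrps24, the counterpart of bacterial S3 at the mRNA entry, had 19.7, 18.4 and 14.7 FPKM in treated cells, against 62.5, 48.9 and 94.3 FPKM in control cells. All treated libraries were well below the lowest control library. The fall of -1.86 ± 0.26 (limma adjusted p = 0.00177) was called in all 17 alternatives, where it ranged from -2.07 to -0.84.

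Mrps26, Mrps21 and Mrps25 fell less. Mrps26, a mitochondria-specific protein, had 9.80, 9.49 and 8.27 FPKM in treated cells, against 21.9, 16.5 and 39.9 FPKM in control cells (log2 fold change -1.32 ± 0.31, limma adjusted p = 0.0122). Control 3 was again the highest, and no library of 1 group reached the other. Its adjusted p was 0.0527 without treated replicate 3 and lay between 0.00222 and 0.205 over its alternatives. Mrps21, the homologue of bacterial S21, was the most abundant small subunit gene. It had 44.9, 50.6 and 41.3 FPKM in treated cells, against 112, 76.6 and 144 FPKM in control cells (log2 fold change -1.22 ± 0.24, limma adjusted p = 0.00660). The groups did not overlap, yet the call was lost under the same 5 alternatives as for Mrpl28, with adjusted p between 0.00110 and 0.764. Mrps25, another mitochondria-specific protein, had 1.81, 1.92 and 2.05 FPKM in treated cells, against 4.19, 3.28 and 5.10 FPKM in control cells (log2 fold change -0.81 ± 0.15, limma adjusted p = 0.00494). Its groups were separate at a low level, and its call was lost with the same total, at an adjusted p of 0.603 in a range of 0.00147 to 0.603. Exons of Nr2c2 cover 69.8% of those of Mrps25 on the other strand, and Nr2c2 averaged 1.86 FPKM in treated and 0.851 FPKM in control libraries, the opposite order. The other 8 small subunit genes that fell had log2 fold changes between -0.81 for Mrps23 and -0.43 for Mrps30.

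The rises were fewer, and Mrps2 was the largest. Mrps2, the homologue of bacterial S2, which in bacteria joins the small subunit late in assembly, had 9.04, 8.26 and 9.56 FPKM in treated cells, against 1.89, 2.48 and 2.34 FPKM in control cells. The means differed 4.00-fold, and both groups were tight. The log2 fold change was 1.62 ± 0.12 (limma adjusted p = 0.000295), it was called in all 17 alternatives, and Mrps2 was the 1 small subunit gene that rose. It rested on 1186, 1066 and 1234 reads in treated and 173, 230 and 160 reads in control libraries.

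The rising large subunit genes were Mrpl10, Mrpl46, Mrpl41, Mrpl55, Mrpl3 and Mrpl47. Mrpl10, which anchors the stalk that recruits translation factors, had 33.3, 34.8 and 32.5 FPKM in treated cells, against 16.99, 22.6 and 8.54 FPKM in control cells (log2 fold change 1.11 ± 0.32, limma adjusted p = 0.0268). All treated libraries were above all control libraries, among which control 3 was the lowest. Its call was lost in 5 of 17 alternatives. It was lost without any 1 of the treated libraries or control 1, at limma adjusted p of 0.0610 to 0.0830. Without the filter on low values it was lost at an adjusted p of 0.0655. The alternatives spanned 0.00243 to 0.0830. Mrpl46, specific to mitochondria, had 11.8, 13.7 and 11.7 FPKM in treated cells, against 6.08, 7.38 and 3.86 FPKM in control cells (log2 fold change 1.02 ± 0.21, limma adjusted p = 0.00815). The groups were apart, and the call held in all 17 alternatives. Its exons share 12.2% of their bases with the neighbouring small subunit gene Mrps11 on the other strand, which had 4.83, 5.02 and 4.32 FPKM in treated and 3.05, 7.45 and 1.89 FPKM in control cells and was not called (limma adjusted p = 0.517).

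Mrpl41, also specific to mitochondria, had 13.3, 16.1 and 12.2 FPKM in treated cells, against 7.88, 8.88 and 5.24 FPKM in control cells (log2 fold change 0.85 ± 0.20, limma adjusted p = 0.0134). No library of one group reached the other. Without treated replicate 2 the adjusted p was 0.0572, the highest over its alternatives, and the lowest was 0.000724. Mrpl55, the counterpart of bacterial L31, had 14.8, 16.1 and 13.1 FPKM in treated cells, against 8.62, 7.34 and 10.2 FPKM in control cells (log2 fold change 0.69 ± 0.15, limma adjusted p = 0.00910). Here control 3 was the highest control library, and the groups still stood apart in a call kept by all 17 alternatives. Mrpl3, the homologue of bacterial L3 near the peptidyl transferase centre, had 4.92, 4.42 and 4.94 FPKM in treated cells, against 3.58, 1.84 and 2.74 FPKM in control cells (log2 fold change 0.66 ± 0.18, limma adjusted p = 0.0241). It was separate between groups but was called in 8 of 16 alternatives, with adjusted p between 0.000508 and 0.171. The calls lost included those without each 1 of the treated libraries. The last, Mrpl47, the counterpart of bacterial L29 and called in 13 of 16 alternatives, had 3.03, 2.55 and 2.94 FPKM in treated and 1.73, 1.53 and 1.54 FPKM in control cells (log2 fold change 0.56 ± 0.10, limma adjusted p = 0.00413).

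**Figure D2:**
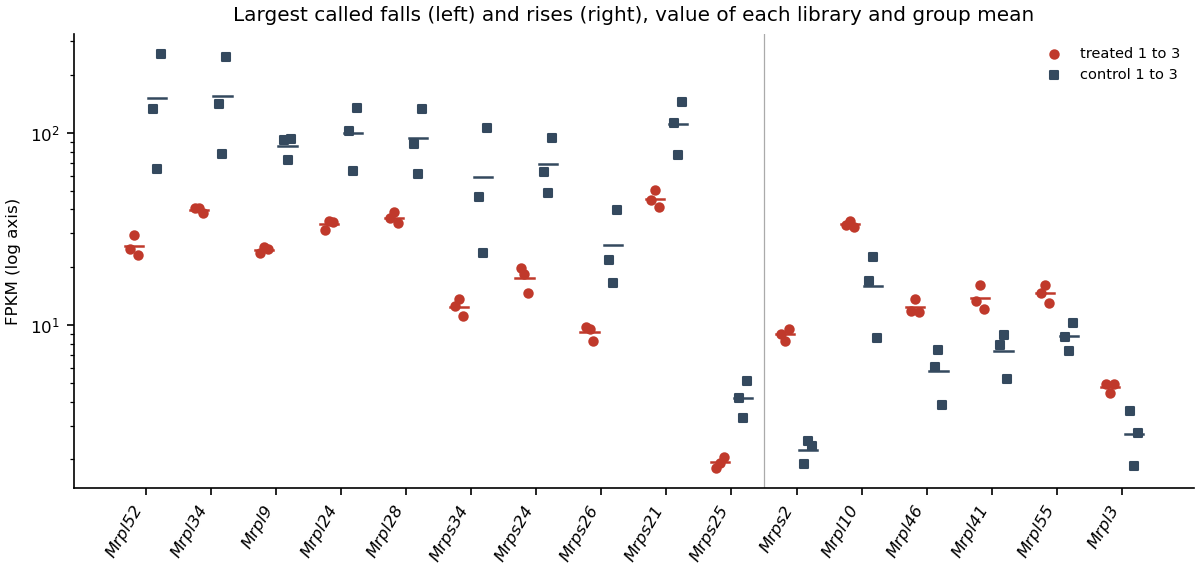
FPKM (log axis) of the 10 largest called falls and the 6 largest called rises that had separate groups, each library a point and each group mean a bar, treated left of control. The treated libraries lie close together for every gene, as for Mrpl52 at 23.2 to 29.6 FPKM, while control libraries spread, as at 65.3 to 256 FPKM; no gene shown overlaps between groups.

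Genes fixed for their role in the ribosome did not move as 1 group. In the stalk, Mrpl11 had 7.68, 7.56 and 6.47 FPKM in treated cells, against 11.9, 9.30 and 19.6 FPKM in control cells. Its groups did not overlap, and its call (log2 fold change -0.76 ± 0.26, limma adjusted p = 0.0439) was lost in 8 of 17 alternatives, with adjusted p between 0.0109 and 0.548 and a change of 0.14 with the same total. Mrpl12, the stalk protein that touches the elongation factors, had 60.9, 65.4 and 55.4 FPKM in treated cells, against 78.6, 56.0 and 99.3 FPKM in control cells (log2 fold change -0.33 ± 0.22, limma adjusted p = 0.250). Its groups overlapped, and its fold change was above 0 under 5 of the alternatives. So of 3 stalk genes 1 rose, 1 fell and 1 was not called.

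Mrpl45, which holds the tunnel exit at the inner membrane, had 43.0, 42.9 and 46.5 FPKM in treated cells, against 83.6, 75.2 and 97.0 FPKM in control cells (log2 fold change -0.93 ± 0.13, limma adjusted p = 0.001999). The groups were well apart. The call of Mrpl45 was lost under 4 of 17 alternatives, with adjusted p between 0.000925 and 0.659, and its fold change was 0.058 with the same total. Mrpl58, a peptidyl-tRNA hydrolase built into the large subunit, had 5.86, 7.001 and 5.37 FPKM in treated cells, against 10.3, 11.3 and 6.81 FPKM in control cells (log2 fold change -0.54 ± 0.20, limma adjusted p = 0.0570), with overlapping groups. Mrps12, at the decoding centre, had 18.7, 18.1 and 14.9 FPKM in treated cells, against 16.7, 17.8 and 6.89 FPKM in control cells (log2 fold change 0.40 ± 0.34, limma adjusted p = 0.358). Only control 3 was low for Mrps12, and without it the fold change was -0.0051.

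The paralogs Mrps18a, Mrps18b and Mrps18c descend from 1 bacterial protein, S18, and occupy different sites. Mrps18a had 13.6, 13.1 and 13.4 FPKM in treated cells, against 8.64, 12.7 and 6.81 FPKM in control cells (log2 fold change 0.51 ± 0.21, limma adjusted p = 0.0819). Mrps18b had 9.79, 8.51 and 10.6 FPKM in treated cells, against 4.18, 10.0 and 2.21 FPKM in control cells (log2 fold change 0.90 ± 0.43, limma adjusted p = 0.119). Mrps18c had 4.47, 4.73 and 6.07 FPKM in treated cells, against 6.47, 6.51 and 7.10 FPKM in control cells (log2 fold change -0.35 ± 0.13, limma adjusted p = 0.0631). None of the paralogs was called, although Mrps18a, Mrps18b and Mrps18c were called in 4, 2 and 4 of 17 alternatives, and Mrps18c had a log2 fold change of 0.51 with the same total. On the deposited scale the treated libraries of Mrps18a were all above and those of Mrps18c all below the control libraries. Mrps30, placed in the large subunit, had 4.26, 4.59 and 4.99 FPKM in treated cells, against 7.19, 6.997 and 5.61 FPKM in control cells (log2 fold change -0.43 ± 0.13, limma adjusted p = 0.0271). The groups of Mrps30 were separate, and its call was lost in 7 of 17 alternatives, with adjusted p between 0.00113 and 0.112 and a change of 0.42 with the same total. Mrps36, which is no ribosomal protein by place, had 7.63, 8.67 and 9.67 FPKM in treated cells, against 4.16, 19.9 and 1.41 FPKM in control cells (limma adjusted p = 0.522). Its control libraries lay on both sides of the treated ones. Mrpl53 was listed at 0 in all 6 libraries, and 88.0% of its exon bases are shared with Gm42688 on the same strand. How reads at shared bases were counted is not given, so the 0 cannot be read as an absence of Mrpl53 RNA.

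The summed expression of the members was lower, higher or overlapping between groups depending on the scale. All 78 genes together had 1086, 1147 and 1043 FPKM in the treated libraries, against 1795, 1574 and 2219 FPKM in the control libraries, or 1092 ± 52.2 and 1863 ± 328 FPKM (SD, n = 3 each). The treated sums lay below all control sums. As a share of the FPKM total of each library, they made up 0.459%, 0.474% and 0.442% in treated, against 0.398%, 0.349% and 0.417% in control libraries, and here the treated libraries lay above. As a share of the recovered reads they made up 0.308%, 0.320% and 0.304% in treated, against 0.299%, 0.283% and 0.309% in control libraries, and the groups overlapped. The large subunit summed to 776 ± 38.5 FPKM in treated and 1315 ± 240.2 FPKM in control libraries, and the small subunit to 316 ± 13.7 FPKM in treated and 548 ± 87.8 FPKM in control libraries. The ratio of the large to the small subunit sum was 2.46, 2.47 and 2.44 in treated libraries, against 2.43, 2.32 and 2.44 in control libraries. This ratio does not depend on the scaling of a library, and its groups overlapped. With the genes sorted by place it was 2.19, 2.21 and 2.22 in treated libraries, against 2.05, 1.95 and 2.01 in control libraries. The groups then did not overlap. Sorting by place adds Dap3, Aurkaip1, Chchd1 and Ptcd3 to the small subunit. Their means were 15.02, 28.34, 24.36 and 3.66 FPKM in treated, against 51.55, 46.99, 42.01 and 3.29 FPKM in control libraries. With them, and without Mrps18a, Mrps30 and Mrps36, the small subunit summed to 361 FPKM in treated and 667 FPKM in control libraries. The genes taken out, Mrps18a, Mrps30 and Mrps36, averaged 13.37, 4.61 and 8.66 FPKM in treated libraries. In control libraries they averaged 9.39, 6.60 and 8.49 FPKM. The parts of the added genes and of those taken out were not tested, so the separation is not credited to the added genes.

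**Figure D3:**
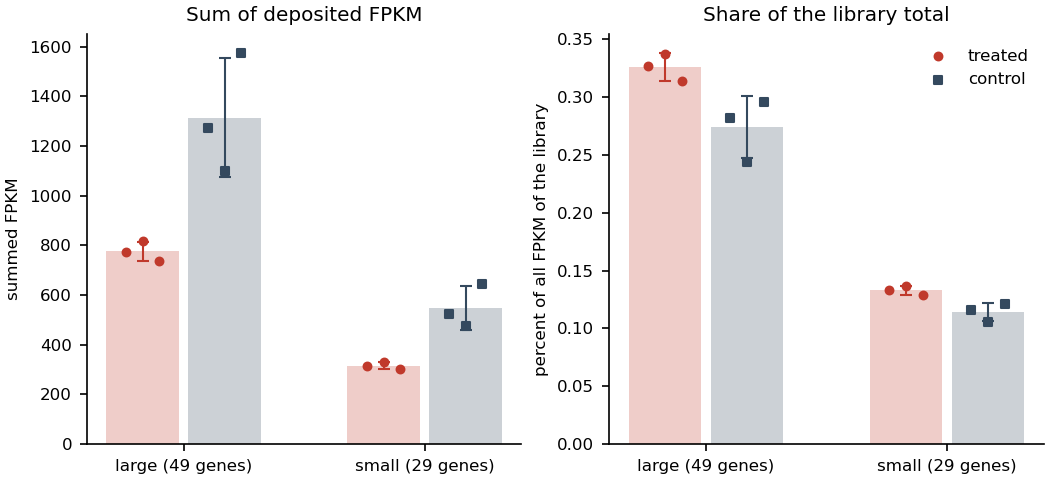
Summed FPKM of the large and small subunit genes (left) and their share of all FPKM of the library in percent (right); bars are group means, error bars SD, points the 3 libraries of each group, treated left of control. Treated sums are lower on the deposited scale, at 776 and 316 FPKM against 1315 and 548 FPKM, and treated shares are higher.

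The change of a member went with its level, as it did for genes at large. Over the 77 members tested, the log2 fold change and the mean FPKM over all 6 libraries had a Spearman rho of -0.42, and over 10993 genes tested rho was -0.44. This is a description across genes that share libraries, and the fold change and the level were taken from the same values. Of the 20 most abundant members, at 19.7 FPKM or more, 14 fell and 1 rose, with a median log2 fold change of -0.78. At or above that level, 2474 genes had a median of -0.68, and 57.6% of them were called lower. Of the 20 least abundant members, at 6.01 FPKM or less, 6 fell and 3 rose, with a median of 0.12, while 5367 genes at or below that level had a median of 0.32, with 14.4% called lower and 41.7% higher. Exon length and GC content had rho of -0.04 and -0.09 with the change of the members, and of 0.29 and -0.24 over all genes. With trends on GC content, length and level removed, 16 members were called lower and 13 higher, or 20.8% and 16.9%, against 22.996% and 22.4% of all genes in that fit. The excess of lower calls over all genes was not there, and it was not there without the level term either. With only GC content and length trends removed, 26.0% of members and 26.3% of all genes were called lower. Higher calls in that fit were 14.3% of members and 26.5% of all genes.

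**Figure D4:**
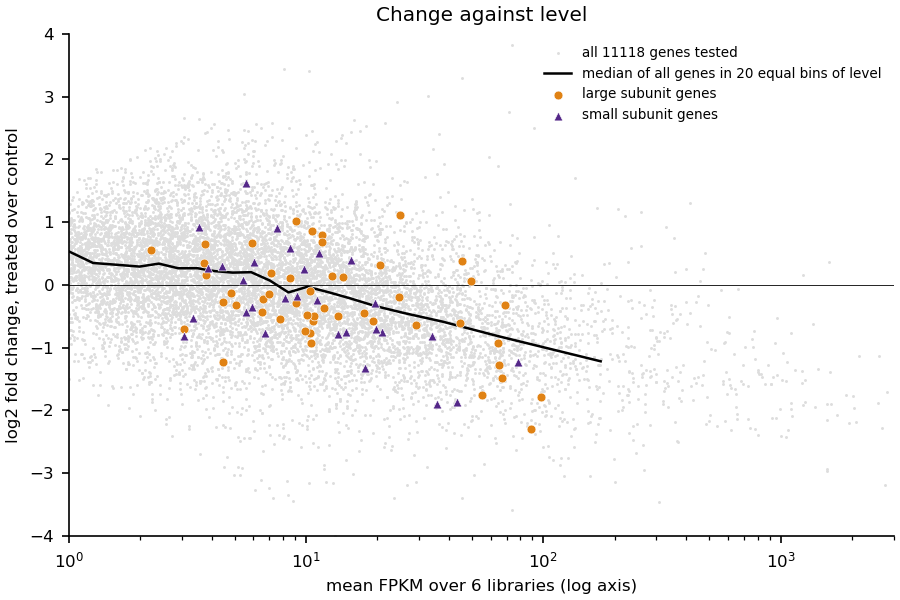
Log2 fold change, treated over control, against mean FPKM over 6 libraries (log axis) for all genes tested (grey), with large subunit genes as circles and small subunit genes as triangles; the line is the median of all genes in 20 bins of level. The members slope downward with level as the line does, with rho of -0.42 and -0.44 over members and all genes.

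Control libraries varied more than treated ones. The SD was larger in the control group for 68 of 77 members, and the median coefficient of variation over the members was 7.68% in treated and 27.8% in control libraries. Over all genes tested these medians were 5.95% and 24.5%. The control libraries also had an order. For 28 members control 3 was highest and control 2 lowest, and 19 of these fell and 1 rose, with a median log2 fold change of -0.80. For 32 members control 2 was highest and control 3 lowest, and 6 of these fell and 3 rose, with a median of 0.07. Control 3 was the highest control for 39.0% of the members and 43.9% of all genes tested, and control 2 for 46.8% and 39.3%. Control 1 lay between the other two for 77.9% of the members and for 65.6% of all genes tested. The order is thus not particular to the members, and calls of all genes with the same order were not counted. Both the order and the fold change use the control values, so these are set side by side with no test. Mrps36, Mrpl42 and Mrpl32, chosen here for their control spread, show it most plainly. Mrpl42 had 6.44, 6.23 and 6.78 FPKM in treated cells, against 3.12, 12.1 and 0.927 FPKM in control cells, and Mrpl32 had 3.89, 4.08 and 4.25 FPKM in treated cells, against 4.90, 10.2 and 1.60 FPKM in control cells. None of these 3 was called.

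The members were also divided by descent from a bacterial ribosomal protein. Of 46 members with a bacterial homologue, 19 fell and 5 rose (41.3% and 10.9%), with a median log2 fold change of -0.30. Of 29 tested members specific to mitochondria, 10 fell and 2 rose (34.5% and 6.90%), with a median of -0.43. The shares over all genes tested were 28.3% lower and 27.9% higher. Within the large subunit, 12 of 30 genes with a bacterial homologue and 4 of 18 mitochondria-specific genes fell. Within the small subunit these numbers were 7 of 16 and 6 of 11. The difference between these classes was not tested.

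Partners of the mitoribosome in translation were called higher and lower about as often as all genes tested. Of the 5 mitoribosomal proteins with other symbols, 3 fell and 0 rose at adjusted p under 0.05 in limma, the same 3 passing at an unadjusted p under 0.05. Dap3, a GTP-binding protein of the small subunit, had 14.2, 15.5 and 15.4 FPKM in treated cells, against 45.4, 30.02 and 79.2 FPKM in control cells (log2 fold change -1.60 ± 0.33, limma adjusted p = 0.00782). Its groups were apart. Gadd45gip1 fell by 1.23 and Aurkaip1 by 0.70 on the log2 scale, while Chchd1 and Ptcd3 had log2 fold changes of -0.68 and 0.12 and were not called.

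Among 11 translation factors tested, 5 rose and 2 fell, with a median log2 fold change of 0.07. Mtif2, the initiation factor that brings the first tRNA, had 7.42, 8.31 and 7.63 FPKM in treated cells, against 3.22, 2.94 and 2.67 FPKM in control cells (log2 fold change 1.16 ± 0.11, limma adjusted p = 0.000486). Tufm, the elongation factor that delivers the tRNAs, had 30.3, 28.7 and 32.5 FPKM in treated cells, against 66.8, 63.3 and 76.1 FPKM in control cells (log2 fold change -1.14 ± 0.12, limma adjusted p = 0.000742). Both genes had tight, separate groups in opposite directions. The initiation factor Mtif3 and the release factors Mtrf1 and Mtrf1l rose by 0.83, 0.76 and 0.75 on the log2 scale, 2810006K23Rik rose by 0.90, and the translocase Gfm1 fell by 0.58.

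Of 23 genes for ribosome assembly and rRNA modification, 4 rose and 9 fell. The rises were Mrm2, an rRNA methyltransferase (log2 fold change 1.80), Fastkd2, an RNA-binding protein of large subunit assembly (1.24), the pseudouridine synthase Trub2 (0.85) and the methyltransferase Mettl15 (0.82). The largest falls were those of Malsu1, an assembly factor of the large subunit (-1.82), Rcc1l (-1.20), the pseudouridine synthase Rpusd4 (-1.17) and Rbfa (-1.01). Of 18 genes for charging mitochondrial tRNAs, 6 rose and 4 fell. Among the rises, the synthetases Pars2, Rars2 and Iars2 rose by 1.67, 1.12 and 0.79 on the log2 scale, with Gatc and Gatb, subunits of the amidotransferase that makes glutaminyl-tRNA, at 1.02 and 0.42. Fars2, Kars, Gars and Wars2 fell by 1.31, 1.02, 0.72 and 0.44, and Kars and Gars also serve the cytosol. Over the 57 partners tested, 15 rose and 18 fell, or 26.3% and 31.6%, near the 27.9% and 28.3% of all genes tested, with a median log2 fold change of 0.07 and a median level of 3.89 FPKM, against 10.5 FPKM for the members. With the same total in every library, 37 partners were called higher and 0 lower.

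**Figure D5:**
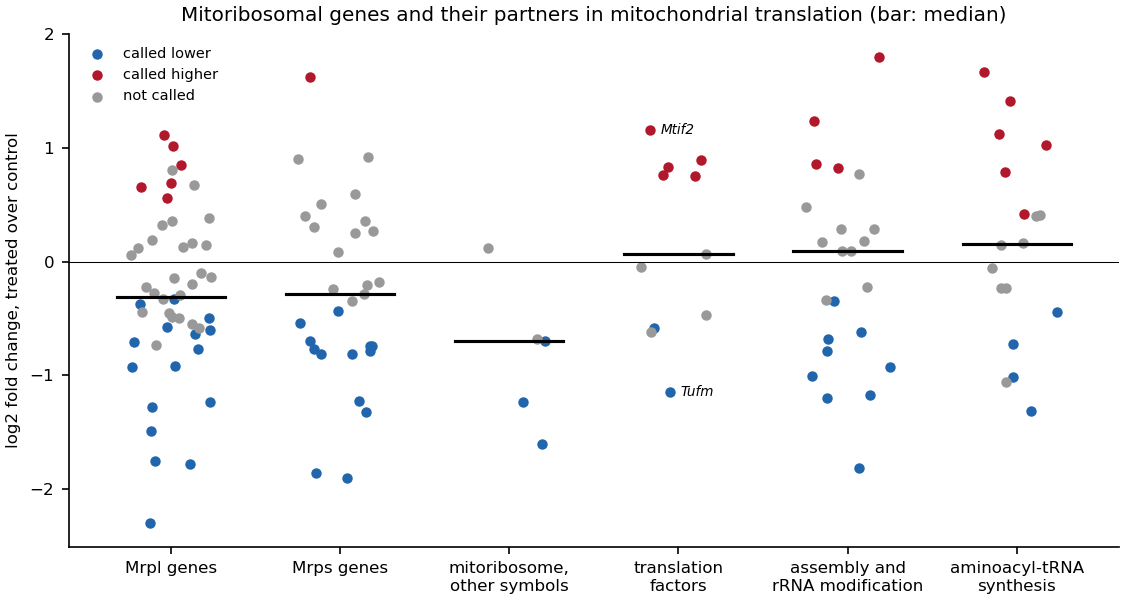
Log2 fold change, treated over control, of the tested Mrpl and Mrps genes and of 4 lists of partners in mitochondrial translation, each gene a point coloured by its call, bars at the medians. The medians of the Mrpl and Mrps genes lie at -0.31 and -0.28, and those of translation factors, assembly and tRNA charging genes between 0.07 and 0.16; all points move upward with the same total in every library.

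Genes of the cytosolic ribosome and of complex I had lower medians than the members. Of 76 cytosolic ribosomal protein genes, 57 fell and 0 rose in limma, with 59 at an unadjusted p under 0.05 and a median log2 fold change of -1.52. Their level was far higher, with a median of 746 FPKM. Of 35 nuclear genes for complex I, the respiratory enzyme that mitoribosomes supply with subunits, 22 fell (62.9%) and 0 rose. In this set 26 were at an unadjusted p under 0.05, the median log2 fold change was -0.80 and the median level 40.3 FPKM. Of all genes tested at 19.7 FPKM or more, 57.6% were called lower and 5.66% higher, so the complex I share was near that of genes at high levels. Of 12 mitochondrial mRNAs tested, which mitoribosomes translate, 9 rose and 0 fell, with 10 at an unadjusted p under 0.05. The mitochondrial mRNAs summed to 6640.1, 6605 and 7117 FPKM in treated libraries. In control libraries they summed to 726, 5631 and 82.6 FPKM, with control 2 far above the other control libraries. Neither mitochondrial rRNA was called, and mt-Rnr1 had 212, 295 and 259.8 FPKM in treated cells, against 452, 829 and 139 FPKM in control cells. For mt-Rnr2 all treated libraries, at 156, 199 and 187 FPKM, were below the control libraries, at 369.6, 644 and 207 FPKM (log2 fold change -1.02 ± 0.40, limma adjusted p = 0.0706). The differences between these groups and the members were not tested.

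In the genome the members lie on 17 chromosomes, with 11 on chromosome 11 and 8 on chromosome 17. For 18 members, or 23.1%, a protein-coding gene on the other strand starts at most 1000 bases upstream of the member's start. This held for 11.3% of tested protein-coding genes. Neighbours whose starts lie inside each other's genes, such as Mrpl46 and Mrps11, were not counted. Both genes of 13 such pairs were tested, and 6 pairs had the same sign of change. Mrpl10 rose while its neighbour Lrrc46, which starts 153 bases away, fell to a mean of 0.668 FPKM in treated cells, against 1.93 FPKM in control cells (limma adjusted p = 0.0262), and this was the 1 pair with both genes called. Mrpl49 was not called, at a log2 fold change of 0.13, beside Fau, a gene encoding a cytosolic ribosomal protein, which fell by 1.90. Exons of other genes overlap those of 33 members, and 11 members share at least 20% of their exon bases in this way. Processed pseudogenes carry the names of Mrpl23, Mrpl48 and Mrps36. Of these 5 pseudogenes 4 were above 0 in some library, up to 5.55 FPKM for Mrpl23-ps1, so the values of Mrpl23, Mrpl48 and Mrps36 may share reads with them. Reads of a tested member in a library numbered 42 to 7808.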

How the data were processed

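RNA of 3 treated and 3 control 4T1 libraries was selected on poly-T beads and sequenced as paired reads, per the labels' protocols. The authors deposited 1 FPKM value per gene and library, per the file headers. Which aligner, counter, strand setting, build and annotation were used is not given in the sources. Symbols (52125 of 56748 identifiers), lengths and coordinates came from GENCODE M21 on GRCm38. Reads worked back from FPKM and exon length came out whole, within 0.02 of a read, for at least 92.3% of values under 200 reads. Those of all 78 members came out whole within 0.05 of a read, with Mrpl53 at 0 throughout. Recovered reads bear on counting error only, because PCR copies were not marked by molecular identifiers. Group was the only term of a fit on log2(FPKM + 1) in limma (version 3.58.1, R 4.3.3, trend on the variance), over 11118 genes that reached 1 FPKM in 3 or more libraries, with Benjamini-Hochberg adjustment. Fold changes on that scale understate those of low genes. The fit was tested on simulated data that gave both groups the same spread. That test did not cover the larger spread of the control libraries. Python 3.11.15 with pandas 2.3.3 and scipy 1.17.1 made the summaries. Alternatives covered pseudocount, filter, scaling, GC content, length and level trends, library weights, replicate block, leaving out each library, placing genes by subunit, and voom on recovered reads, the last chosen after seeing the data.

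Per-library values are given for the 5 largest called falls and rises of each subunit with separate groups, its 3 most abundant genes, 11 genes fixed by role and each gene under the filter. Mrpl47, Mrps11, Mrpl42, Mrpl32 and the partners shown were named after their values were seen. The members and lists were chosen with earlier results of these data known.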

Additional observations from a re-analysis of the deposited data

How the results depend on the processing

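The 17 alternatives left 5 called members called in the same direction throughout (Mrpl46, Mrpl55 and Mrps2 higher, Mrpl9 and Mrps24 lower), and 13 in all that were run for them but the same total (10 lower, 3 higher), of which 4 had 16 alternatives because they were not in the fit with a minimum of 5 FPKM. With the same total in every library, the median of all genes rose to 0.81, 91.6% of all calls were higher, against 49.7% on the deposited scale, members had 3 lower and 39 higher, the large subunit 2 and 25 with a median of 0.58, the small subunit 1 and 14 with a median of 0.67, and the partners 0 and 37. There the log2 fold change was 0.058 for Mrpl45, 0.66 for Mrpl12, 0.42 for Mrps30, 0.14 for Mrpl11, 0.34 for Mrpl58 and 0.51 for Mrps18c. Quantile normalization gave medians of -0.19 (large) and -0.18 (small), 2 small subunit rises and 0.50 for Mrpl12. Cyclic loess gave 17 members lower, 8 of them large, a large median of -0.20 and 0.48 for Mrpl12. Removing GC and length trends gave 11 members higher, medians of -0.18 and -0.10, 3 small subunit rises and 0.15 for Mrpl12. Removing level as well gave 16 lower and 13 higher, with 9 and 10 in the large subunit (median -0.13), 7 and 3 in the small one (median -0.11) and 0.66 for Mrpl12. Library weights per group gave 3 small subunit rises, and a minimum of 5 FPKM gave 2 partners higher. By place, the small median was -0.44 and the difference 0.12. The cause of these shifts was not tested.

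Leaving out 1 library at a time gave 18 to 34 members lower and 4 to 13 higher, 10 to 21 and 3 to 8 in the large subunit, 8 to 13 and 1 to 5 in the small one, and 11 to 21 partners lower and 6 to 20 higher. Of all genes, 19.4% to 32.99% were called lower in these fits and 14.88% to 33.47% higher. The large median then ranged from -0.34 to -0.24, the small median from -0.33 to -0.27, and their difference from -0.043 to 0.065. The log2 fold change of Mrps12 ranged from -0.0051 to 0.62 and that of Mrps36 from -0.11 to 1.45, both lowest without control replicate 3 and highest without control replicate 2. Same-numbered libraries deviated with correlations of -0.05, -0.11 and -0.14, so the numbers do not pair them, and the fit with a replicate block called 23 members lower and 7 higher. Tested members had 42 reads or more in every library, and the 3 libraries per group limit the precision.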
